A study of Bos taurus with 8 samples.

Results

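The genes described here encode 9 enzymes that make, interconvert or inactivate androgens and estrogens: CYP17A1, CYP19A1, HSD17B1, HSD17B12, HSD17B4, HSD17B11, SRD5A1, CYP1B1 and SULT1E1. They were taken as a named list of 9 of the 18087 gene symbols with a cluster of their own on the array, and each of the 9 was measured by 1 such cluster. Their signals were compared between large luteal cells (LLC, 4 samples) and small luteal cells (SLC, 4 samples). Both cell types were sorted by FACS, after staining with the DNA dye Hoechst, from mid-cycle corpora lutea of lactating Holstein cows whose cycle had been synchronized with the prostaglandin analogue cloprostenol. Each sample was measured on its own microarray, an Affymetrix Bovine Gene 1.0 ST. The labels number the samples of each cell type as biological replicates 1 to 4 without naming the cow, so p-values measure the spread between these samples.

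Sex steroids are built from the same precursors as progesterone. CYP17A1 turns pregnenolone and progesterone into androgen precursors, CYP19A1 (aromatase) turns androgens into estrogens, and 17β-hydroxysteroid dehydrogenases switch both between weak and potent forms. In the bovine follicle CYP17A1 belongs to theca cells and CYP19A1 to granulosa cells. After ovulation granulosa cells give rise to most LLC and theca cells to many SLC, and progesterone becomes the main product.

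Of the 9 genes, CYP19A1 was higher in LLC and CYP1B1 was lower in LLC, and both passed a fold difference of 2. The other 7 did not pass the test. CYP17A1 had nearly the same mean in both cell types, but its 4 LLC arrays lay in pairs on either side of the SLC arrays. The call used here is a Benjamini-Hochberg adjusted p under 0.05 in limma over all 24415 clusters. It was met by 19.8% of clusters, 9.64% higher in LLC and 10.2% lower in LLC, and by 22.7% of symbols when 1 cluster was taken for each. The 2 called of 9 is therefore near the share of all genes. With a fold difference above 2 as well, 5.47% of clusters passed, 2.40% higher in LLC and 3.07% lower in LLC. In 4 of the 9 genes the cell types did not overlap, 3 with LLC above (CYP19A1, HSD17B12 and HSD17B4) and 1 with LLC below (CYP1B1). Over all clusters this held for 22.4%, 11.2% with LLC above and 11.3% with LLC below. The median log2 difference of the 9 genes was 0.06, against 0.015 over all clusters, but the middle gene was SULT1E1, which was below background, so nothing is read from it. All differences are LLC minus SLC on the log2 scale.

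**Figure D1:**
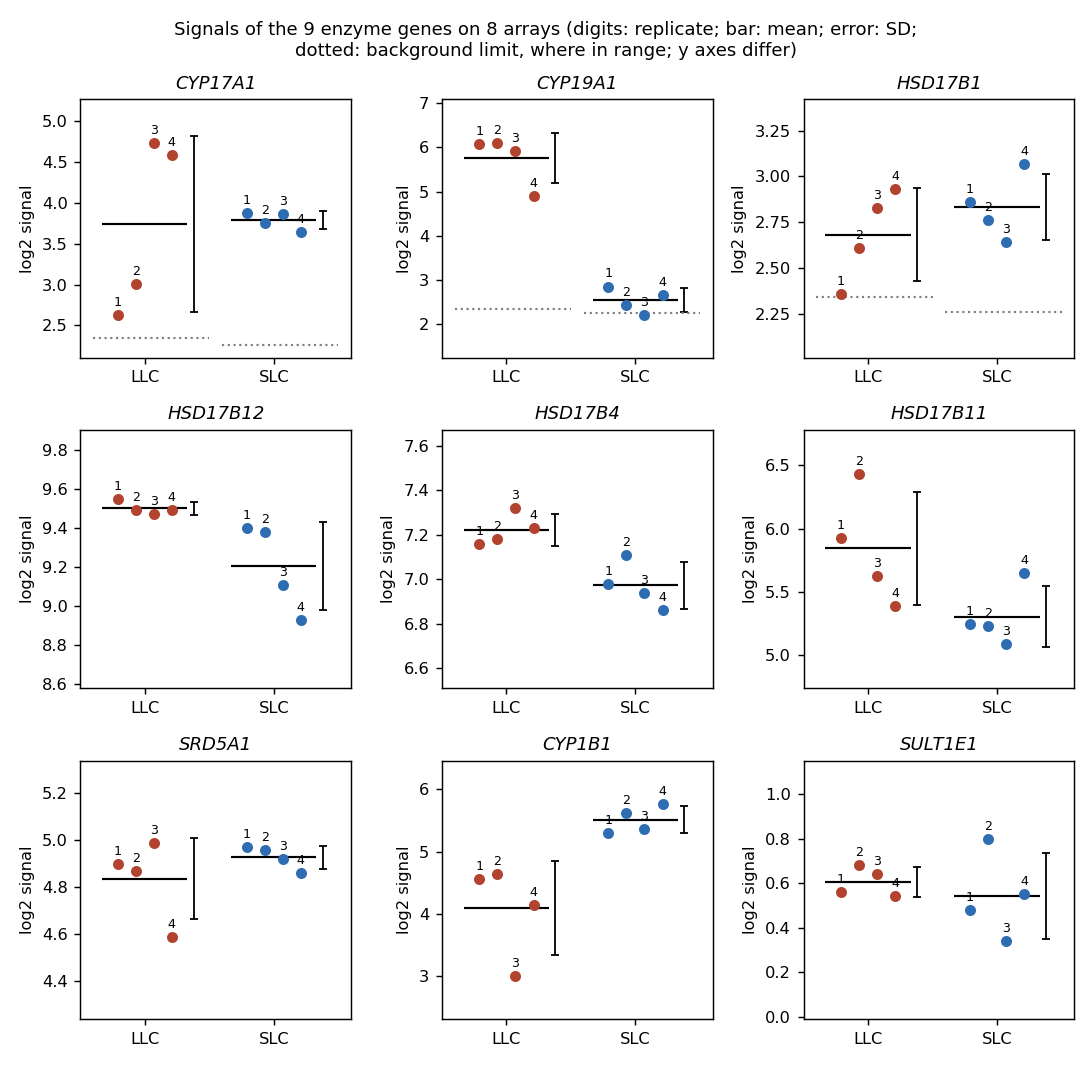
Log2 signal (y axes, which differ between panels) of the 9 genes on each of the 4 LLC arrays (red) and 4 SLC arrays (blue), with the mean as a bar, the SD as an error bar and the replicate number at each point. CYP19A1 lies between 4.91 and 6.11 in LLC, above all SLC arrays, CYP1B1 lies below all SLC arrays in LLC, and CYP17A1 in LLC splits into 2 arrays below and 2 above the SLC arrays.

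**Figure D2:**
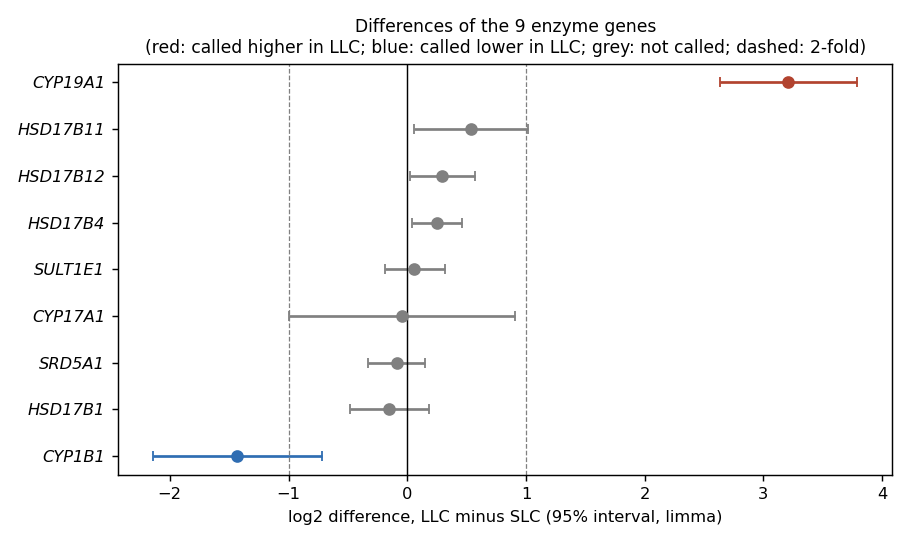
Log2 difference, LLC minus SLC, of the 9 genes (x axis) with its 95% interval from limma, ordered by size. The intervals of CYP19A1 (2.63 to 3.79) and CYP1B1 (-2.14 to -0.72) belong to the 2 called genes, and CYP17A1 has the widest interval of the 9, -1.0 to 0.91.

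The arrays fell by cell type. On the first principal component the LLC arrays lay between 17.9 and 54.4 and the SLC arrays between -44.4 and -36.9. LLC replicate 4, at 17.9, was nearest to SLC, and in 63.7% of the clusters called higher in LLC it had the lowest signal of the 4 LLC arrays. Markers of steroid-making cells (5 genes, among them HSD3B1 and CYP11A1) averaged 10.08 to 10.32 in LLC and 9.88 to 10.12 in SLC. Granulosa lineage genes averaged 5.90 to 6.38 in LLC and 4.35 to 4.85 in SLC. Of these 10 genes 6 were called higher in LLC, among them FSHR with means below background, and 2 were called lower in LLC, INHA (difference -1.24, SE 0.22) and GATM (-0.85, SE 0.15). Theca lineage genes averaged 5.30 to 5.71 in LLC and 6.60 to 6.73 in SLC, with 4 of 7 called lower in LLC and 0 higher. The 4 were INSL3, NR2F2, PDGFRA and PDGFRB, of which PDGFRA was also listed for fibroblasts and PDGFRB for pericytes. Markers of lymphocytes (7 of 10) and erythrocytes (4 of 5) were mostly at or below background in both cell types. Background was set as the 95th percentile of 718 olfactory receptor clusters, 2.34 for LLC means and 2.26 for SLC means.

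CYP17A1 encodes the hydroxylase and lyase that opens the way to androgens. Its log2 signal was 2.63, 3.01, 4.74 and 4.59 in LLC replicates 1 to 4, and 3.88, 3.76, 3.87 and 3.64 in SLC replicates 1 to 4. LLC replicates 1 and 2 lay below every SLC array, and LLC replicates 3 and 4 lay above every SLC array. The means were 3.74 ± 1.08 in LLC and 3.79 ± 0.11 in SLC (SD, n = 4 each), a difference of -0.04 (SE 0.43, limma adjusted p = 0.965). The interval of -1.0 to 0.91 covers differences of nearly 2-fold either way, so a similar mean does not show a similar level. Without LLC replicate 1 the difference was 0.33, and without LLC replicate 3 it was -0.38. The SD of CYP17A1 in LLC stood at percentile 99.6 of all clusters, and its SD in SLC at percentile 29.6. Precisely this order, with LLC replicates 3 and 4 above and LLC replicates 1 and 2 below all SLC arrays, was seen in 91 of 24415 clusters (0.373%). As the order was taken from CYP17A1 itself, this share does not measure how unusual the gene is. With any 2 LLC arrays above and the other 2 below all SLC arrays, it was 271 clusters (1.11%).

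An order with LLC replicates 3 and 4 above LLC replicates 1 and 2, whatever the SLC signals, was common. It held for 20.8% of all clusters, for 10 of 77 cell type markers and for 13 of 63 other pathway genes. Among the 9 enzyme genes, HSD17B1 and HSD17B4 had it besides CYP17A1. The 10 markers came from several lists: INSL3 and LHCGR of theca cells, NR5A1 of steroid-making cells, INHA of granulosa cells, FBLN2 of fibroblasts, CD3D and CD79B of lymphocytes, and HBB, HBA and SLC4A1 of erythrocytes. The other 5 theca lineage genes, PDGFRA, PDGFRB, NR2F2, GLI1 and PTCH1, did not have it. Values are given for 3 of the 10, chosen after they had been seen. INSL3, a hormone gene of theca cells, was at 5.30, 5.53, 6.83 and 5.83 in LLC replicates 1 to 4, and at 7.95 to 9.27 in SLC. LHCGR, the receptor for luteinizing hormone, was at 7.33, 7.55, 8.39 and 9.38 in LLC replicates 1 to 4, and between 9.08 and 9.6 in SLC. NR5A1, a nuclear receptor that drives steroidogenic genes, was at 5.62, 5.32, 6.33 and 6.26 in LLC replicates 1 to 4, and at 6.08 to 6.74 in SLC. Unlike CYP17A1, these 3 genes did not exceed the highest SLC array in any LLC array. The mean of the 7 theca lineage genes did not divide the LLC arrays in this way, at 5.30, 5.44, 5.38 and 5.71. Of these 7 genes, PDGFRA was also listed for fibroblasts and PDGFRB for pericytes. PDGFRA and PDGFRB were lowest among the LLC arrays in LLC replicate 3, at 3.71 and 4.25. NR2F2, GLI1 and PTCH1 were on no other marker list and did not have the order either. Whether theca-derived cells among the sorted LLC had a part in the CYP17A1 signal was not tested.

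**Figure D3:**
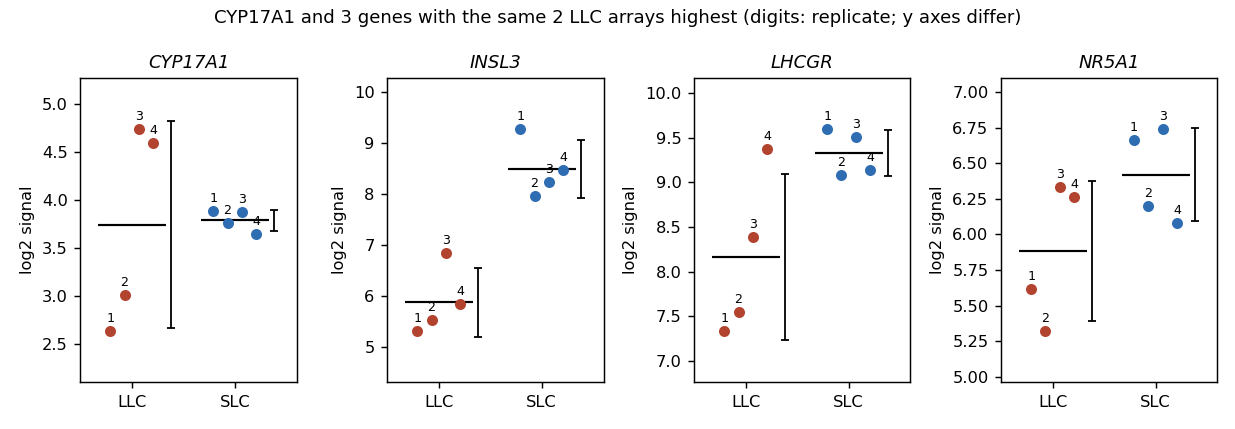
Log2 signal (y axes, which differ between panels) of CYP17A1, INSL3, LHCGR and NR5A1 on the 4 LLC arrays (red) and 4 SLC arrays (blue), with the mean as a bar, the SD as an error bar and the replicate number at each point. In all 4 genes LLC replicates 3 and 4 lie above LLC replicates 1 and 2. In CYP17A1 alone of these 4 they lie above all SLC arrays. The order of the LLC arrays was found in 20.8% of clusters and in 10 of 77 cell type markers. INSL3, LHCGR and NR5A1 are among those 10 and were picked for display with their signals already known. The theca lineage genes PDGFRA, PDGFRB, NR2F2, GLI1 and PTCH1, not drawn here, do not have the order.

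CYP19A1 encodes aromatase, which makes estrogens from androgens. Its log2 signal was 6.07, 6.11, 5.91 and 4.91 in LLC replicates 1 to 4, and 2.85, 2.44, 2.21 and 2.66 in SLC replicates 1 to 4. Every LLC array lay above every SLC array, with a gap of 2.06 between the lowest LLC and the highest SLC array. The means were 5.75 ± 0.57 in LLC and 2.54 ± 0.28 in SLC (SD, n = 4 each). The difference was 3.21 (SE 0.26, limma adjusted p = 9.16e-05), or 9.25-fold, and it stood at percentile 99.9 of all clusters. In SLC the signal was near background, and SLC replicate 3 lay below that array's limit of 2.27. The fold is thus approximate, and with every signal held at its background limit the difference was 3.19. In bulk samples such as these, fewer cells of a type and less RNA per cell cannot be told apart.

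LLC replicate 4 had the lowest CYP19A1 signal among the LLC arrays. The granulosa lineage genes also had their lowest mean there, at 5.90, against 6.19 to 6.38 in the other LLC arrays. Without this array the CYP19A1 difference was 3.49 (SE 0.16). The 3 genes with the profile nearest to CYP19A1 over the 8 arrays were ZPR1, UNC80 and PHYHIPL. Likeness was measured as the root mean square difference after each gene's own mean had been subtracted, and was 0.180, 0.181 and 0.210 log2 units. ZPR1, a zinc finger protein gene, averaged 9.76 in LLC and 6.39 in SLC, with LLC replicate 4 lowest of the LLC arrays at 8.76. A shared lowest array follows largely from choosing genes by likeness over these same arrays, so it is no separate result. UNC80, of the sodium leak channel complex, averaged 5.12 in LLC and 2.06 in SLC, and PHYHIPL averaged 4.71 in LLC and 1.75 in SLC. The SLC means of these last genes were below the background limit.

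HSD17B1 encodes the enzyme that reduces estrone to estradiol in granulosa cells. Its signal ranged from 2.36 to 2.93 in LLC and from 2.64 to 3.07 in SLC, close above the background limit in both, and the cell types overlapped. The difference was -0.15 (SE 0.15, interval -0.48 to 0.18, limma adjusted p = 0.567). HSD17B12, known in human and mouse for a reduction step of fatty acid elongation and for reducing estrone, was at 9.55, 9.49, 9.47 and 9.49 in LLC, and at 9.40, 9.38, 9.11 and 8.93 in SLC. All LLC arrays lay above all SLC arrays, by a gap of 0.07. The difference was 0.29 (SE 0.12, interval 0.02 to 0.57) and did not pass after adjustment (adjusted p = 0.127). Its SD was 0.03 in LLC and 0.23 in SLC, the reverse of the wider LLC spread seen in 65.7% of clusters.

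Neither of the listed dehydrogenases that oxidise steroids passed the test. HSD17B4, a peroxisomal enzyme of fatty acid oxidation that also oxidises estradiol, was at 7.16, 7.18, 7.32 and 7.23 in LLC, and at 6.98, 7.11, 6.94 and 6.86 in SLC. The arrays did not overlap, with a gap of 0.05, and the difference was 0.25 (SE 0.10, interval 0.04 to 0.46, adjusted p = 0.102). HSD17B11, a lipid droplet enzyme that oxidises androgen metabolites, was at 5.93, 6.43, 5.63 and 5.39 in LLC, and at 5.25, 5.23, 5.09 and 5.65 in SLC. Here SLC replicate 4 reached into the LLC range. The difference was 0.54 (SE 0.21, interval 0.06 to 1.02, adjusted p = 0.114), and without LLC replicate 4 it was 0.69 with an adjusted p of 0.0367. By an exact two-sided permutation test, HSD17B12 and HSD17B4 each reached p = 0.0286, the smallest that 4 against 4 arrays can give, and HSD17B11 reached p = 0.0857. The smallest p is fixed once the cell types do not overlap, which held for 22.4% of clusters, so it adds nothing to the non-overlap.

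SRD5A1 encodes a 5α-reductase, which makes dihydrotestosterone from testosterone and also reduces progesterone. Its signal was 4.59 to 4.99 in LLC and 4.86 to 4.97 in SLC. Apart from LLC replicate 4, the lowest, the LLC arrays lay between 4.87 and 4.99. The difference was -0.09 (SE 0.11, interval -0.33 to 0.15, adjusted p = 0.654), so a 2-fold difference lay outside the interval.

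CYP1B1 encodes a cytochrome P450 that hydroxylates estradiol to catechol estrogens, and it is known from many mesenchymal and vascular cells. Its log2 signal was 4.56, 4.64, 3.00 and 4.14 in LLC replicates 1 to 4, and 5.30, 5.62, 5.36 and 5.77 in SLC replicates 1 to 4. All LLC arrays lay below all SLC arrays, with a gap of 0.66. The means were 4.08 ± 0.76 in LLC and 5.51 ± 0.22 in SLC (SD, n = 4 each). The difference was -1.43 (SE 0.32, limma adjusted p = 0.0111), a level 2.69-fold lower in LLC. Without LLC replicate 3, the lowest array, it was -1.07 (adjusted p = 0.00381). With variances of single clusters that were not moderated the call was lost (adjusted p = 0.0679).

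Most markers of fibroblasts, pericytes and smooth muscle, endothelial cells and macrophages were also called lower in LLC. Over all clusters 10.2% were. Of 12 fibroblast markers 10 were called lower in LLC, with a mean over the list of 6.01 to 7.04 in LLC and 7.97 to 8.59 in SLC. For pericytes and smooth muscle it was 5 of 9, at 4.32 to 5.36 in LLC and 5.69 to 6.57 in SLC. For endothelial cells it was 8 of 11, at 4.21 to 5.58 in LLC and 5.98 to 6.76 in SLC, and for macrophages 10 of 10, at 3.22 to 3.75 in LLC and 5.43 to 5.81 in SLC. Of these markers, MSR1 alone had a group mean at or below the background limit, in LLC. By single arrays, MSR1 and TYROBP were at or below it on 3 LLC arrays each and AIF1 on 1. LLC replicate 3, lowest in CYP1B1, also had the lowest LLC mean of the fibroblast, pericyte and endothelial lists. Relative to the SLC mean, CYP1B1 lay at -2.51 there and the endothelial list at -2.16. In the other LLC arrays CYP1B1 lay between -1.37 and -0.87 and the endothelial list between -1.05 and -0.79. The other lists set LLC replicate 3 apart less. In LLC replicates 1 to 4 the fibroblast list lay at -2.12, -1.23, -2.26 and -1.72, and the pericyte and smooth muscle list at -1.55, -0.81, -1.86 and -1.29. The macrophage list lay at -1.88, -2.15, -2.41 and -2.41, the same in LLC replicates 3 and 4. The part of these cells in the CYP1B1 difference was not tested.

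**Figure D4:**
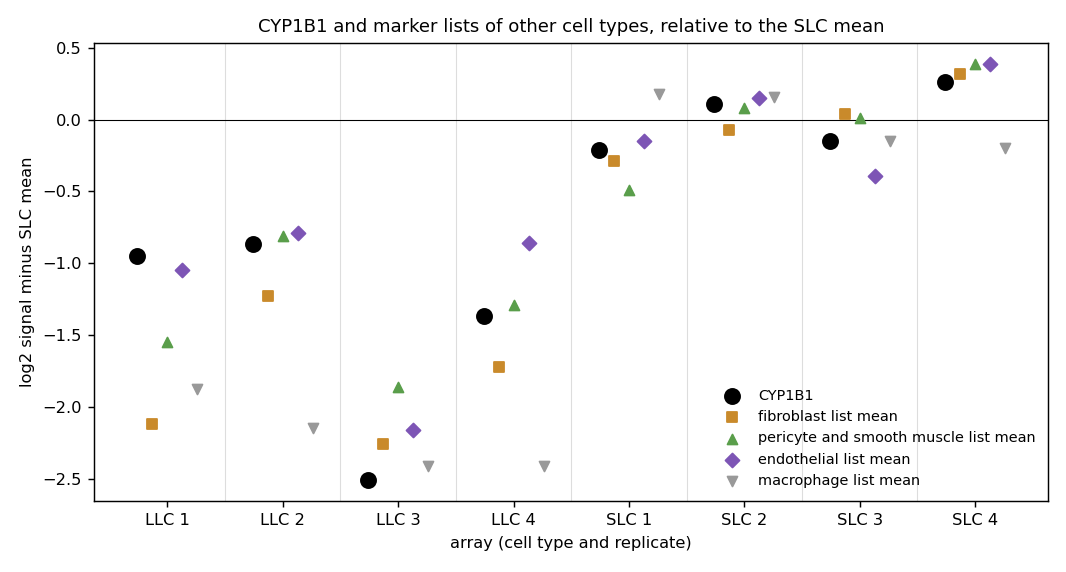
Log2 signal minus the SLC mean (y axis) of CYP1B1 and of the means of 4 marker lists on each LLC and SLC array (x axis). CYP1B1 and the endothelial list are both lowest in LLC replicate 3, at -2.51 and -2.16, while the macrophage list is equally low, at -2.41, in LLC replicates 3 and 4.

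The 3 genes with the profile nearest to CYP1B1 were BHLHE40, a transcriptional repressor gene, PLEKHO1 and BGN, which encodes the matrix proteoglycan biglycan. Their root mean square differences from CYP1B1 over the 8 arrays were 0.116, 0.139 and 0.151 log2 units. BHLHE40 was at 7.35, 7.56, 6.16 and 6.91 in LLC, and at 8.19, 8.55, 8.30 and 8.79 in SLC. BGN was at 7.59, 7.46, 5.95 and 7.25 in LLC, and at 8.53, 8.95, 8.54 and 8.83 in SLC. Both had their lowest signal in LLC replicate 3, like CYP1B1. As they were chosen by likeness to CYP1B1 over these same 8 arrays, this is no separate result.

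SULT1E1 encodes the sulfotransferase that inactivates estrogens. Its signal was 0.54 to 0.68 in LLC and 0.34 to 0.80 in SLC, below the background limit on all 8 arrays. No fold is given for it. Over the 9 genes, the SD was larger in LLC for 6 and smaller in LLC for 3 (HSD17B12, HSD17B4 and SULT1E1).

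The wider pathway was read through 82 genes in 8 lists by role, of which 63 had a cluster of their own. Among these 63 genes, 10 were called higher in LLC and 11 lower in LLC, and 21 had means at or below the background limit in both cell types. The share called was 33.3%, beside 22.7% of all symbols, and the median difference was 0.04. The lists were chosen with earlier results of these data known, so nothing is read from the higher share. The calls also include ESRRG, which was below background on all 8 arrays. The count lower in LLC was 7 without SLC replicate 1 or SLC replicate 2.

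The list of precursor supply held calls in both directions. Of 6 genes of precursor supply 2 were higher in LLC, the electron carrier gene FDX1 (difference 0.81, SE 0.10) and CYP11A1 (0.45, SE 0.09), which makes pregnenolone. HSD3B7, which acts on bile acid precursors, was lower in LLC (-0.57, SE 0.12). HSD3B1, which makes progesterone and androstenedione, differed by 0.26 and did not pass (adjusted p = 0.0598). STAR, FDXR and HSD3B2 were not analysed here.

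Of 6 genes listed as partners of steroid-making P450 enzymes 5 were called, beside 22.7% of all symbols. As the lists were chosen with earlier results of these data known, nothing is read from this share. CYB5A, the cytochrome b5 that favours the lyase step of CYP17A1, was at 6.29, 6.74, 6.24 and 6.50 in LLC, and at 7.52, 7.51, 7.20 and 7.64 in SLC. The cell types did not overlap, and the difference was -1.03 (SE 0.14, limma adjusted p = 0.00110), a level 2.03-fold lower in LLC. LLC replicates 3 and 4, high in CYP17A1, were not the highest 2 LLC arrays in CYB5A. CYB5R3, a cytochrome b5 reductase gene, was also lower in LLC, at 8.05 to 9.31 in LLC and 9.86 to 10.18 in SLC (difference -1.47, SE 0.24). CYB5R1 was lower in LLC by a difference of -0.50 (adjusted p = 0.0478), though its cell types overlapped. PGRMC1, which binds heme and P450 enzymes, was higher in LLC, at 8.88 ± 0.39 in LLC and 7.21 ± 0.10 in SLC (difference 1.68, SE 0.18). CYB5B, the form of the mitochondrial outer membrane, differed by 0.57 (SE 0.13). POR, the reductase that passes electrons to CYP17A1 and CYP19A1, was at 6.57 ± 0.18 in LLC and 6.69 ± 0.11 in SLC (adjusted p = 0.579). In LLC replicates 1 to 4, POR was at 6.37, 6.46, 6.70 and 6.75, and CYB5R3 at 8.05, 8.33, 8.42 and 9.31. In both, LLC replicates 3 and 4 were the highest 2 LLC arrays, as in CYP17A1, unlike in CYB5A, CYB5B, CYB5R1 and PGRMC1.

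Beyond the 4 listed 17β-hydroxysteroid dehydrogenases, HSD17B14 stood out among 14 relatives. This enzyme, known in human to oxidise estradiol, had a log2 signal of 5.90, 5.35, 6.32 and 5.12 in LLC, and of 3.47, 2.83, 3.28 and 3.07 in SLC. All LLC arrays lay above all SLC arrays by at least 1.65, and the difference was 2.51 (SE 0.25, limma adjusted p = 2.48e-04), or 5.70-fold. HSD17B8, of mitochondrial fatty acid synthesis, was higher in LLC by 0.45 (SE 0.11). The other 12 did not pass, and 7 of the 14, among them HSD17B2, HSD17B3 and AKR1C3, were at or below background in both cell types. The 4 other reductase genes did not pass either. TECR, of fatty acid elongation, differed most, by 0.37 (adjusted p = 0.0696), and SRD5A2 and AKR1D1 were at background.

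Among genes of conjugation, most calls fell in the list of sulfation, sulfate removal and transport. Of its 12 genes 4 were lower in LLC and 1 was higher. The sulfotransferase genes among them were SULT1A1 and SULT1B1, and the others called act in sulfatase activation or transport. SUMF1, which activates sulfatases, differed by -0.88 (SE 0.13), the uptake carrier gene SLCO2B1, at background on 2 LLC arrays, by -0.85 (SE 0.14) and the phenol sulfotransferase gene SULT1A1 by -0.71 (SE 0.19). SULT1B1 averaged 1.34 in LLC, below background, and 2.50 in SLC, so its difference of -1.17 is approximate. SLCO3A1 was higher in LLC (0.70, SE 0.15). The steroid sulfatase gene STS averaged 2.52 over LLC and 2.65 over SLC, which did not pass. GUSB, which removes glucuronic acid, was lower in LLC by a difference of -0.44 (SE 0.11), the 1 gene called of 6 of glucuronidation. Of 4 genes around catechol estrogens NQO1, a quinone reductase gene, was lower in LLC (-0.61, SE 0.16), while CYP1A1 and CYP1A2 were at background.

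Receptors of sex steroids and their partners made up the last list, with 3 of 11 higher in LLC and 1 lower. PGR, the progesterone receptor, averaged 4.75 ± 0.52 over LLC and 3.38 ± 0.17 over SLC (difference 1.38, SE 0.23). ESR1, estrogen receptor alpha, averaged 5.81 ± 0.17 over LLC and 5.24 ± 0.36 over SLC, and its difference of 0.57 (SE 0.17) passed narrowly (adjusted p = 0.0463). ESR2, estrogen receptor beta, had means below background in both cell types. ESRRG was called higher in LLC but was below background on all 8 arrays, so no fold is given. The coactivator gene NCOA1 was lower in LLC by a difference of -0.42 (SE 0.12).

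**Figure D5:**
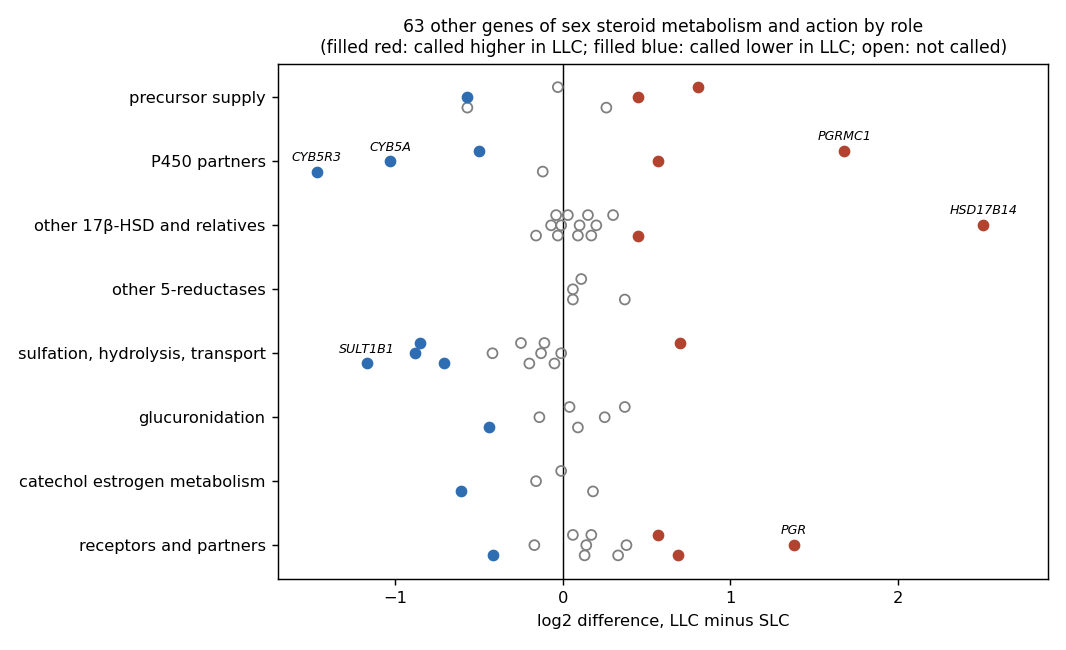
Log2 difference, LLC minus SLC (x axis), of the 63 other genes of sex steroid metabolism and action in 8 lists by role (y axis), filled where called. HSD17B14 (2.51) and PGRMC1 (1.68) have the highest and CYB5R3 (-1.47) the lowest difference.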

How the data were processed

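The authors processed the array scans with RMA in Transcriptome Analysis Console 4.0 and deposited log2 signals of 24415 clusters. RMA corrects background, normalizes across arrays and summarises probes. Values were used as deposited, without detection calls, and no scan before normalization was analysed here. Array medians lay between 3.13 and 3.24. Only 4 arrays for each cell type limit the precision, and no 2 arrays held identical values.

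Symbols came from the platform annotation, and 17996 clusters of 1 symbol were matched to RefSeq (ARS-UCD2.0) by gene number. For several clusters of a symbol the one of highest mean was taken. LLC and SLC were compared in limma 3.58.1 (lmFit, eBayes; R 4.3.3) without a replicate block, and p was adjusted over all clusters by Benjamini-Hochberg. The code was checked on simulated data. The members, lists and background limit were chosen with earlier results of these data known. Named were all members, up to 4 called genes of each pathway list by moderated t (where none was called, the largest difference) and the 3 nearest profiles of called members. Other genes were named after their values had been seen. Alternatives were quantile normalization, median subtraction, a filter on dim clusters, a replicate block, leaving out each array, other variance models, a background floor, an exact permutation test, the added fold filter and averaging the clusters of each symbol.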

Additional observations from a re-analysis of the deposited data

Results flagged for a closer look

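The members and named pathway genes gave 58 groups of 4 arrays. In 4 of these groups a single array was distant from its 3 neighbours, and about 1 in 20 groups would do so by chance. CYP19A1 in LLC replicate 4 was at 4.91, against 5.91 to 6.11 in the other LLC arrays. GUSB was at 6.78 in LLC replicate 1, against 6.55 to 6.58 in the other LLC arrays, and at 7.28 in SLC replicate 3, against 6.96 to 7.0 in the other SLC arrays. ESRRG was at 1.12 in SLC replicate 4, against 0.83 to 0.86 in the other SLC arrays, all below background.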

How the results depend on the processing

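CYP19A1 was called under all 17 alternative fits (3.09 to 3.49) and CYP1B1 under 16 of 17 (-1.61 to -1.07), the exception being variances without moderation (-1.43, adjusted p = 0.0679), where 0 members were lower in LLC. CYP17A1, HSD17B1, SRD5A1 and SULT1E1 were called in none, and the sign of CYP17A1 and SULT1E1 changed between them. HSD17B12 was called after quantile normalization (0.38, adjusted p = 0.0424), HSD17B4 with signals held at the background limit (0.25, adjusted p = 0.0315) and HSD17B11 without LLC replicate 4 (0.69). In each of these settings 2 members were higher in LLC. The exact permutation test left HSD17B12 (0.29) and HSD17B4 (0.25) at p = 0.0286, unadjusted, which follows from their arrays not overlapping. With 1 array left out, HSD17B11 ranged from 0.34 to 0.69, 1 to 2 members were higher in LLC, and 7 to 11 other pathway genes were higher in LLC and 7 to 10 lower. The cause of these changes was not tested. Same-numbered LLC and SLC arrays correlated at -0.13 to 0.17 in their deviations, and only replicate 3 correlated best with its own number. Whether the numbers mark shared cows is not known from the labels, and they were not treated as pairs. With the replicate number as a block, CYP19A1 was at 3.21 and CYP1B1 at -1.43, both called, and 10 pathway genes each were higher and lower in LLC. SULT1E1 did not reach the filter on dim clusters and was left out with signals held at the limit, where all its arrays lie. Each member has 1 cluster, so averaging clusters changed none of their values.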

Other observations

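The 3 genes with the profile nearest to CYP17A1, looked up after its split in LLC had been seen, were CA9, ARMH4 and MIR2284F, with root mean square differences of 0.275, 0.286 and 0.323 log2 units. CA9, a carbonic anhydrase gene known to respond to low oxygen, was at 1.53, 1.92, 3.03 and 3.77 in LLC replicates 1 to 4, and at 2.24 to 2.56 in SLC. Its signal was below background in LLC replicates 1 and 2 and SLC replicate 1, and close above it in the other SLC arrays. ARMH4 was at 3.10, 2.60, 4.62 and 4.68 in LLC replicates 1 to 4, and at 3.59 to 4.26 in SLC. MIR2284F was below background on all 8 arrays. Any 2 LLC arrays lay above and the other 2 below all SLC arrays in 271 of 24415 clusters (1.11%).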
